A study of Glycine max with 24 samples.

Results

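The question addressed here is whether the leaf transcript response to soybean aphids differed between a susceptible and a resistant soybean cultivar after 7 days. It was put as 1 contrast, called the interaction below: the aphid effect in the resistant cultivar (infested minus uninfested) minus the aphid effect in the susceptible cultivar. All 12 arrays that the titles place on day 7 were used, of 24 arrays in the series, and the contrast was computed for 37593 soybean probe sets. Soybean (Glycine max) plants were of the cultivar SD01-76R, labelled susceptible, or LD05-16060, labelled resistant to aphids. They were grown at 25 C with 16 h of light, each under its own net. At the V3 stage the infested plants received 30 aphids on the third trifoliate leaf, 10 on each leaflet, at least 21 of them adults, and the aphids were taken off before the leaves were sampled. The 4 groups were uninfested susceptible, infested susceptible, uninfested resistant and infested resistant leaves, with 3 arrays each. The resistant group is 1 breeding line and the susceptible group another, so resistance and the rest of the genetic difference between the lines cannot be told apart.

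Soybean aphids feed on phloem sap through stylets and can stay on a leaf for days. Plant responses to such feeding run through calcium and protein kinase signalling, through hormones such as jasmonate, salicylate, ethylene and abscisic acid, and through transcription factor families such as WRKY, bZIP and NAC. They reach metabolism through the phenylpropanoid pathway, which starts at phenylalanine ammonia-lyase and feeds lignin and isoflavonoids. Late embryogenesis and seed maturation proteins, best known from drying seeds, are also made in leaves under water deficit or abscisic acid.

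Values are log2 intensities after quantile normalization, so a difference of 1 is a 2-fold ratio. The deposited medians of the day 7 arrays were 7.97, 8.04 and 7.86 in infested susceptible leaves and 7.38 to 7.79 in the other 9 arrays. Quantile normalization removes such a shift between groups, and its origin was not tested. Uninfested resistant replicate 1 was the day 7 array least like the others, with a mean correlation of 0.933 against 0.951 to 0.966 for the other 11, and results are therefore also given without it. The signal of 4 control transcripts was higher at the 3' than the 5' end by 1.33, 1.65 and 1.98 in infested susceptible arrays and by 1.16 to 1.51 in the other 9 arrays, and its part in the results was tested only by adding it as a covariate, which kept all 254 calls given below. The leaf label matched its markers: 6 mesophyll genes averaged 11.53 ± 0.02, 11.30 ± 0.39, 11.30 ± 0.15 and 11.23 ± 0.30 (SD, n = 3) in uninfested susceptible, infested susceptible, uninfested resistant and infested resistant leaves. Root and nodule markers (16 genes, group means 6.24 to 6.29) and seed storage protein genes (10 genes, 5.56 to 5.60) were dim in all 4 groups, where 5.26 is the 5th percentile of the values. In whole leaves, fewer cells of a type and less RNA per cell cannot be told apart.

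The interaction passed an adjusted p of 0.05 (limma, Benjamini-Hochberg over all probe sets) in 254 probe sets, 0.676% of those tested. Of these, 105 (0.279%) lay above 0, meaning a more positive aphid effect in the resistant cultivar, and 149 (0.396%) lay below 0. An unadjusted p under 0.05 was reached by 5910 probe sets, where 1880 would be expected without any difference. Of the 254, 218 were at least 1 log2 unit in size and 79 at least 2, with a range from -6.41 to 4.49. Over all 37593 probe sets these counts were 2460 and 407. A threshold on p favours large estimates, so the sizes of called differences are no separate result. The split between directions depended on scaling. Without quantile normalization the median interaction of all probe sets was -0.25, and 17 probe sets then passed above 0 and 480 below 0, 3.42% above 0 against 41.3% with it. All 254 kept their sign there. In a fit of the 12 day 7 arrays alone, without the spread of the day 1 arrays, limma called 0 probe sets, with a smallest adjusted p of 0.0615 and 6097 probe sets at an unadjusted p under 0.05.

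Single arrays also set how many probe sets passed. Leaving out any one of 5 arrays left 12 to 21 calls: infested resistant replicate 1 (12 calls), uninfested resistant replicate 1 (12), infested susceptible replicate 1 (14), and uninfested susceptible replicates 1 (21) and 3 (14). Without infested resistant replicate 3 there were 101 calls, and without infested susceptible replicate 3 there were 121. Leaving out the other 5 day 7 arrays gave 246 to 642. The day 1 arrays enter only the estimate of the spread, and leaving out one of them gave between 161 calls (uninfested resistant replicate 2) and 342 (infested resistant replicate 2). Of the 254 probe sets, 10 passed without each of the 12 day 7 arrays in turn, 3 of them above 0 and 7 below. These 10 include the genes PM3, SPK-4 and SCAM-5, and the first 5 arrays above are called the 5 sensitive arrays below.

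In the group means, the shape of the interaction was the same in most of the called probe sets. It was an aphid effect in the susceptible cultivar, and a smaller effect of opposite sign in the resistant one. The effects had opposite signs in 245 of 254 probe sets, against 63.2% of all probe sets. The effect was larger in the susceptible cultivar in 248 of 254, against 67.2% of all. The median size of the effect was 1.07 in the susceptible and 0.46 in the resistant cultivar. Infested and uninfested arrays did not overlap in 252 of 254 probe sets in the susceptible cultivar and in 102 of 254 in the resistant cultivar, against 24.3% and 7.43% of all probe sets. These counts describe the values the contrast is made of and test nothing further. For some named genes the opposite sign in the resistant cultivar rested on replicate 1. PM3 replicates 2 and 3 were 7.17 and 7.06 in uninfested and 7.44 and 7.48 in infested resistant leaves, a rise as in the susceptible cultivar. SPK-4, by contrast, was lower in every infested than in every uninfested resistant array.

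Read by treatment, the same values show a cultivar difference that changed sign. In all 254 called probe sets the resistant minus susceptible difference had opposite signs in uninfested and infested leaves, against 59.7% of all probe sets. The difference was wider in uninfested leaves in all but 26 of the 254 (10.2%), against all but 36.5% of all probe sets. Its median size was 1.02 in uninfested and 0.504 in infested leaves, against 0.178 and 0.121 over all probe sets. Probe sets called above 0 were lower in the resistant cultivar in uninfested leaves (median difference -0.95) and slightly higher in infested leaves (0.43). Those called below 0 were higher in the resistant cultivar in uninfested leaves (1.12) and lower in infested leaves (-0.57). In these probe sets uninfested resistant leaves stood near infested susceptible leaves: the median size of that difference was 0.15, against 0.11 over all probe sets, while the median size of the interaction was 1.54. Uninfested leaves of the cultivars did not overlap in 248 of 254 probe sets and infested leaves in 138, against 23.0% and 11.1% of all probe sets.

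**Figure D1:**
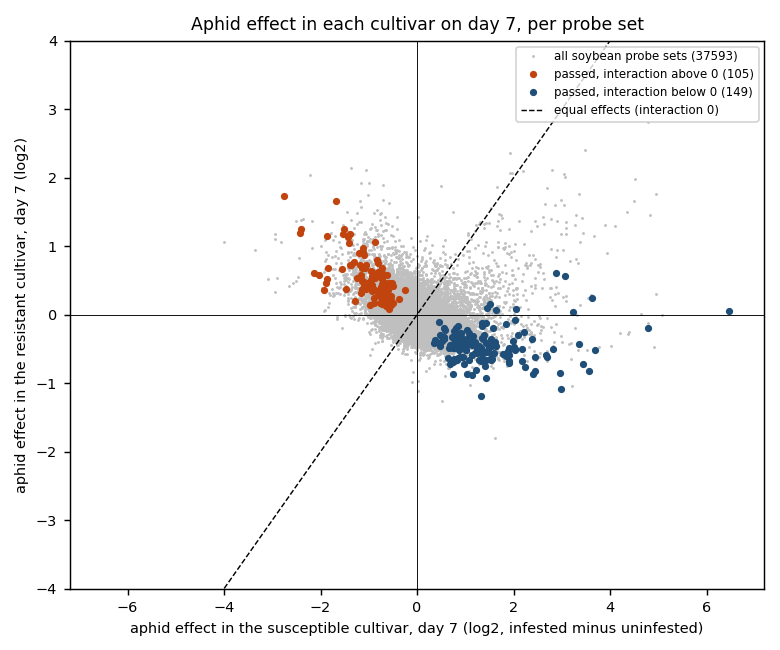
Aphid effect on day 7 in the susceptible (horizontal) and the resistant cultivar (vertical), both in log2 units, for all 37593 probe sets in grey and the 105 and 149 that passed above and below 0 in colour. Of the 254 called probe sets 245 lie in the upper left or lower right, on opposite sides of 0 in the cultivars, and they spread further along the susceptible axis.

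Of the 254 called probe sets, 76 were tied to 1 gene by the array annotation, 6 to several and 172 to none. For 27 of them the annotation gave more than a locus number as a name, which stand for 21 genes, 8 above 0 and 13 below. All 21 are described here, with values per array in the order of replicates 1 to 3. Probe sets whose identifier ends in s_at or x_at can also bind related transcripts. Among the 21 genes this applies to the values per array of SPK-4, LHCP and PAL2.1, and to the second probe sets of PM3 and BZIP71. It applies as well to unnamed probe sets with these endings and to many members of the gene lists, such as NAC1, IFS1, IFR, PIP2-4 and SGlu2.

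The signalling genes that passed all lay below 0. SCAM-5 encodes a divergent calmodulin isoform, a calcium sensor, and SPK-4 and SPK-3 encode serine/threonine protein kinases. SPK-4 measured 8.37, 9.14 and 8.72 in uninfested and 10.08, 10.47 and 9.90 in infested susceptible leaves. In the resistant cultivar it measured 9.89, 10.20 and 10.47 in uninfested and 9.38, 9.35 and 9.59 in infested leaves. No infested array overlapped an uninfested one in either cultivar, and the order was reversed between them. The interaction of SPK-4 was -2.16 ± 0.27 (SE, adjusted p = 0.00331), and it stayed between -2.36 and -1.97 when any day 7 array was left out, with an adjusted p of at most 0.0142.

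SCAM-5 measured 5.23, 5.22 and 5.25 in uninfested and 6.62, 6.21 and 6.44 in infested susceptible leaves. Resistant leaves gave 5.55, 5.85 and 5.60 in uninfested and 4.91, 5.51 and 5.39 in infested leaves. The infested susceptible arrays stood above the other 9 arrays, which lay near the low end of the scale. The interaction was -1.59 ± 0.21 (SE, adjusted p = 0.00331), and its adjusted p stayed at or below 0.0175 without any single day 7 array. The other SCAM-5 probe set did not pass (-0.03 ± 0.22, adjusted p = 0.970). SPK-3 crossed over in the same manner at a higher level, from a mean of 9.17 to 9.92 with aphids in the susceptible and from 10.26 to 9.77 in the resistant cultivar, with no overlap in either. Its interaction was -1.24 ± 0.26 (SE, adjusted p = 0.0358), and its other probe set did not pass (0.04 ± 0.31, adjusted p = 0.968). The call of SPK-3 was lost without any of the 5 sensitive arrays, infested resistant replicate 3 or uninfested resistant replicate 2 (interaction -1.41 to -1.12, adjusted p up to 0.106), and on unscaled values (adjusted p = 0.0558).

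Transcription factors that passed below 0 came from the bZIP and WRKY families. BZIP1, also known as AREB1, is a factor that binds abscisic acid response elements, and WRKY proteins bind W-box promoter elements in many stress responses. BZIP71 measured 8.45, 9.10 and 8.36 in uninfested and 10.45, 10.68 and 10.18 in infested susceptible leaves. Values in resistant leaves were 10.79, 10.40 and 9.93 in uninfested and 9.40, 10.15 and 9.85 in infested leaves. Susceptible groups were apart by more than 1 unit, while the resistant groups overlapped. The interaction was -2.37 ± 0.39 (SE, adjusted p = 0.0155), and the second BZIP71 probe set also passed (-2.47 ± 0.43, adjusted p = 0.0175).

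WRKY51 measured 5.65, 6.52 and 5.62 in uninfested and 7.50, 7.31 and 7.66 in infested susceptible leaves. In the resistant cultivar it measured 7.99, 7.02 and 7.16 in uninfested and 6.42, 7.32 and 7.06 in infested leaves. The susceptible groups were apart and the resistant groups overlapped. The uninfested susceptible values of 5.65 and 5.62 lay near the low end of the scale. The interaction of WRKY51 was -2.02 ± 0.37 (SE, adjusted p = 0.0202), and 2 of its 4 probe sets passed, with all 4 below 0. The calls of BZIP71 and WRKY51 were each lost without any of the 5 sensitive arrays, with an adjusted p of up to 0.058 and 0.0701. Without uninfested resistant replicate 1 the interactions were -2.16 and -1.72.

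The other 3 factors had smaller differences. BZIP1 went from a mean of 8.11 to 8.98 in the susceptible and from 9.04 to 8.52 in the resistant cultivar, with no overlap in either, an interaction of -1.40 ± 0.29 (SE, adjusted p = 0.0351). The other, brighter BZIP1 probe set did not pass (-1.07 ± 0.27, adjusted p = 0.0675). WRKY22 went from 8.25 to 9.07 and from 9.27 to 8.88, also with no overlap, an interaction of -1.21 ± 0.27 (SE, adjusted p = 0.0424), and 1 of its 5 probe sets passed. The called probe set of BZIP68 differed in shape. It was higher with aphids in the susceptible cultivar, from 5.67, near the low end of the scale, to 7.11. In the resistant cultivar it was nearly level, 6.0 and 6.10, an interaction of -1.35 ± 0.30 (SE, adjusted p = 0.0451). The other, brighter BZIP68 probe set did not pass (-0.82 ± 0.35, adjusted p = 0.263). Its aphid effects had opposite signs, 0.64 in the susceptible and -0.18 in the resistant cultivar. The calls of the 3 factors were lost without any of the 5 sensitive arrays, with an adjusted p of up to 0.124. Omission of infested resistant replicate 3 also ended the 3 calls, omission of uninfested resistant replicate 2 and infested susceptible replicate 2 those of BZIP1 and WRKY22, and omission of infested susceptible replicate 3 that of WRKY22. The BZIP68 call was further lost without infested resistant replicate 2, uninfested resistant replicate 3 or uninfested susceptible replicate 2. Over these omissions the interactions ran from -1.55 to -1.25 for BZIP1, from -1.33 to -1.07 for WRKY22 and from -1.49 to -1.12 for BZIP68.

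PM3, a seed maturation protein gene, had the largest interaction in size of the 21 named genes that passed. It measured 5.40, 5.77 and 5.52 in uninfested and 7.98, 7.83 and 8.96 in infested susceptible leaves. Resistant leaves gave 8.57, 7.17 and 7.06 in uninfested and 6.02, 7.44 and 7.48 in infested leaves. Uninfested susceptible leaves stood below the other 9 arrays, near the low end of the scale, and the resistant groups overlapped. The interaction was -3.31 ± 0.52 (SE, adjusted p = 0.0139), and -2.83 without uninfested resistant replicate 1 (adjusted p = 0.0424). Both PM3 probe sets passed. The mean of 10 seed storage protein genes was 5.56 to 5.60 in the groups, near the low end of the scale. Of these genes 8 lay above and 2 below 0, none called, with sbp lowest at -0.92 ± 0.64 (adjusted p = 0.520).

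ACS1 encodes 1-aminocyclopropane-1-carboxylate synthase, which makes the precursor of ethylene. It measured 5.62, 5.83 and 4.92 in uninfested and 9.43, 7.60 and 9.02 in infested susceptible leaves. Values in resistant leaves were 7.34, 5.61 and 5.60 in uninfested and 6.22, 6.13 and 6.30 in infested leaves. Only the infested susceptible arrays stood apart, above the other 9, and the uninfested susceptible ones lay near the low end of the scale. The interaction was -3.20 ± 0.65 (SE, adjusted p = 0.0339), and its other 2 probe sets did not pass (-2.59 and -1.0, adjusted p = 0.0609 and 0.374). The call was lost without any of the 5 sensitive arrays, infested resistant replicate 3 or infested susceptible replicate 3. Over single omissions the interaction ran from -3.74 to -2.62 and the adjusted p reached 0.100.

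Genes of metabolism that passed below 0 were ALDH10A2, a betaine aldehyde dehydrogenase, ALDH3H1, an aldehyde dehydrogenase of another family, and BMY1 (locus LOC547684), a beta-amylase, an enzyme of starch breakdown. ALDH10A2 measured 9.25, 10.08 and 9.25 in uninfested and 10.95, 11.45 and 10.55 in infested susceptible leaves. In the resistant cultivar it measured 11.13, 11.35 and 11.05 in uninfested and 10.30, 10.07 and 11.54 in infested leaves. The third infested resistant array was the highest of all 12, while the other 2 lay below every uninfested resistant array. The interaction was -2.0 ± 0.45 (SE, adjusted p = 0.0438). ALDH3H1 went from a mean of 6.06 to 7.31 in the susceptible and from 7.22 to 6.72 in the resistant cultivar without overlap, an interaction of -1.75 ± 0.33 (SE, adjusted p = 0.0217), and its other probe set did not pass (-0.05 ± 0.22, adjusted p = 0.946). BMY1 went from 9.09 to 10.65 in the susceptible cultivar and overlapped in the resistant one (10.28 and 10.09), an interaction of -1.76 ± 0.39 (SE, adjusted p = 0.0448), with its other 2 probe sets at -1.86 and -1.69 without passing. The calls of all 3 genes were lost without any of the 5 sensitive arrays. That of BMY1 was also lost without infested resistant replicate 3, uninfested resistant replicate 2 or infested susceptible replicate 3. That of ALDH10A2 was also lost without infested resistant replicate 2, uninfested resistant replicate 2 or infested susceptible replicate 2. Over single omissions the interactions ran from -2.45 to -1.72 for ALDH10A2, from -1.89 to -1.55 for ALDH3H1 and from -2.03 to -1.39 for BMY1, with adjusted p values of up to 0.132.

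**Figure D2:**
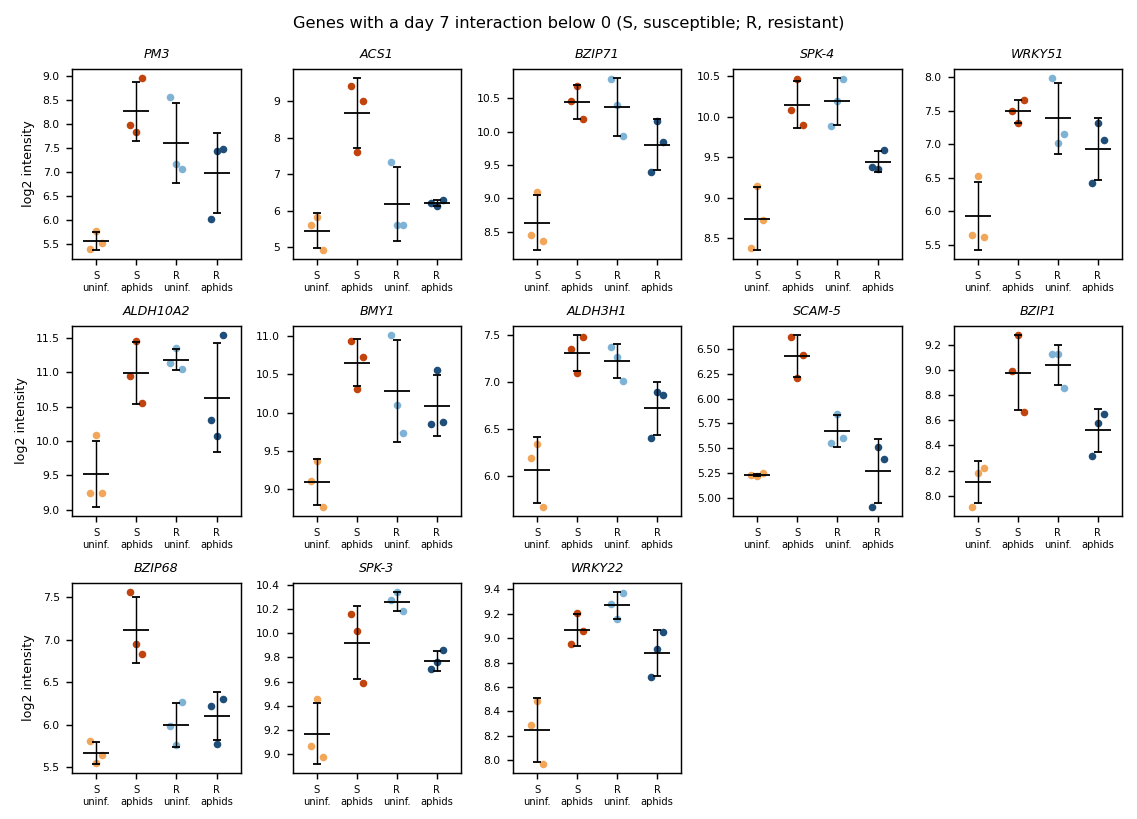
Log2 intensity on each day 7 array of the 13 named genes whose interaction passed below 0, by group, with the mean and SD (n = 3) as lines and each panel on its own scale. In the susceptible cultivar (S) every infested array lies above every uninfested array in all 13 panels, and in the resistant cultivar (R) the groups overlap or run the other way.

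Above 0, the secondary metabolism genes that passed were PAL2.1, a phenylalanine ammonia-lyase at the entry of the phenylpropanoid pathway, and NES, a nerolidol synthase, which makes a volatile terpene alcohol. PAL2.1 measured 13.42, 12.39 and 12.35 in uninfested and 10.94, 11.50 and 11.18 in infested susceptible leaves. Resistant leaves gave 9.70, 11.85 and 11.64 in uninfested and 12.83, 12.08 and 12.03 in infested leaves. No groups overlapped within a cultivar, and the first uninfested resistant array was the lowest of the 12 by more than 1 unit. The interaction was 2.76 ± 0.57 (SE, adjusted p = 0.0351), and 2.08 without that array (adjusted p = 0.0576). Of the other PAL2.1 probe sets, one lay at 2.28 ± 0.68 (adjusted p = 0.111) and the other on the opposite side of 0, at -1.15 ± 0.36 (adjusted p = 0.128), so the probe sets of this gene disagree.

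NES measured 10.94, 10.09 and 10.02 in uninfested and 8.41, 9.19 and 7.82 in infested susceptible leaves. Values in resistant leaves were 6.63, 9.24 and 8.38 in uninfested and 9.97, 9.08 and 8.65 in infested leaves. The susceptible groups were apart, and the resistant groups overlapped, with uninfested replicate 1 far below the rest. The interaction was 3.03 ± 0.69 (SE, adjusted p = 0.0477), and 2.30 without that array (adjusted p = 0.114). The calls of PAL2.1 and NES were each lost without any of the 5 sensitive arrays, infested resistant replicate 3 or infested susceptible replicate 3, with an adjusted p of up to 0.104 for PAL2.1 and 0.135 for NES. On unscaled values NES did not pass (adjusted p = 0.0549).

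EXP2 encodes an expansin, a protein that loosens cell walls during growth. It measured 9.31, 8.96 and 10 in uninfested and 6.80, 7.83 and 7.51 in infested susceptible leaves. In the resistant cultivar it measured 6.74, 7.25 and 7.75 in uninfested and 7.79, 7.38 and 8.30 in infested leaves. Uninfested susceptible leaves stood above the other 9 arrays, and the resistant groups overlapped. The interaction was 2.62 ± 0.50 (SE, adjusted p = 0.0242), and all 3 of its probe sets passed. It was 2.37 without uninfested resistant replicate 1 (adjusted p = 0.0802), and the call was lost as well without the other 4 sensitive arrays or infested resistant replicate 3.

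LHCP, a light-harvesting chlorophyll-binding protein of the chloroplast antenna, was among the brightest genes. It measured 14.36, 14.17 and 14.50 in uninfested and 13.35, 12.82 and 13.45 in infested susceptible leaves. Resistant leaves gave 12.74, 13.24 and 13.23 in uninfested and 14.10, 13.10 and 13.49 in infested leaves. Uninfested susceptible leaves stood above the other 9 arrays. The interaction was 1.63 ± 0.29 (SE, adjusted p = 0.0175), and both probe sets passed. The call was lost without any of the 5 sensitive arrays (interaction 1.36 to 1.86 over omissions, adjusted p up to 0.065) and on unscaled values (adjusted p = 0.0529). The photosynthesis list as a whole was split: of 7 genes, 3 lay above 0 and 4 below, with a median of -0.05 (-0.33 to 0.19 over single omissions) and no other call. The 4 below 0 were all RCA genes, which encode Rubisco activase. CAB3, the other chlorophyll-binding protein gene, and PSAD lay above 0 with LHCP, at 0.48 ± 0.16 and 0.17 ± 0.13 (adjusted p = 0.157 and 0.586).

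The remaining 4 genes above 0 were COL10, a CONSTANS-like gene, GSTU51, a tau-class glutathione S-transferase that conjugates reactive compounds, and AG1 and DD2/63. GSTU51 measured 10.06, 9.82 and 9.94 in uninfested and 9.21, 9.28 and 9.13 in infested susceptible leaves. Values in resistant leaves were 9.23, 8.99 and 9.17 in uninfested and 9.47, 9.40 and 9.61 in infested leaves. The arrays of each group lay close together, and neither the cultivars nor the treatments overlapped. The interaction of GSTU51 was 1.10 ± 0.24 (SE, adjusted p = 0.0402). AG1 went from a mean of 8.44 to 6.57 in the susceptible and from 6.55 to 7.06 in the resistant cultivar, an interaction of 2.38 ± 0.50 (SE, adjusted p = 0.0358). COL10 went from 9.26 to 8.33 and from 8.27 to 8.71, an interaction of 1.37 ± 0.30 (SE, adjusted p = 0.0424). DD2/63 went from 7.01 to 6.25 and from 6.43 to 6.75, an interaction of 1.08 ± 0.21 (SE, adjusted p = 0.0242). The other probe sets of COL10 and DD2/63 did not pass (0.77 ± 0.36 and 3.14 ± 1.09, adjusted p = 0.310 and 0.165). In the resistant cultivar the groups were apart for GSTU51 and DD2/63 and overlapped for AG1 and COL10. On unscaled values none of the 4 passed, with adjusted p values of 0.0728 for AG1, 0.255 for COL10, 0.436 for GSTU51 and 0.163 for DD2/63.

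These 4 calls also rested on single arrays. Those of AG1, COL10 and GSTU51 were lost without any of the 5 sensitive arrays or infested resistant replicate 3. AG1 and GSTU51 were lost as well without uninfested resistant replicate 2, AG1 and COL10 without infested susceptible replicate 2, and COL10 and GSTU51 without infested susceptible replicate 3. DD2/63 was lost without infested resistant replicates 1 or 3, uninfested resistant replicate 1, infested susceptible replicate 1 or uninfested susceptible replicate 3. Over single omissions the interactions ran from 1.98 to 2.69 for AG1, from 1.18 to 1.53 for COL10, from 1.03 to 1.16 for GSTU51 and from 0.93 to 1.19 for DD2/63, with adjusted p values of up to 0.142.

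**Figure D3:**
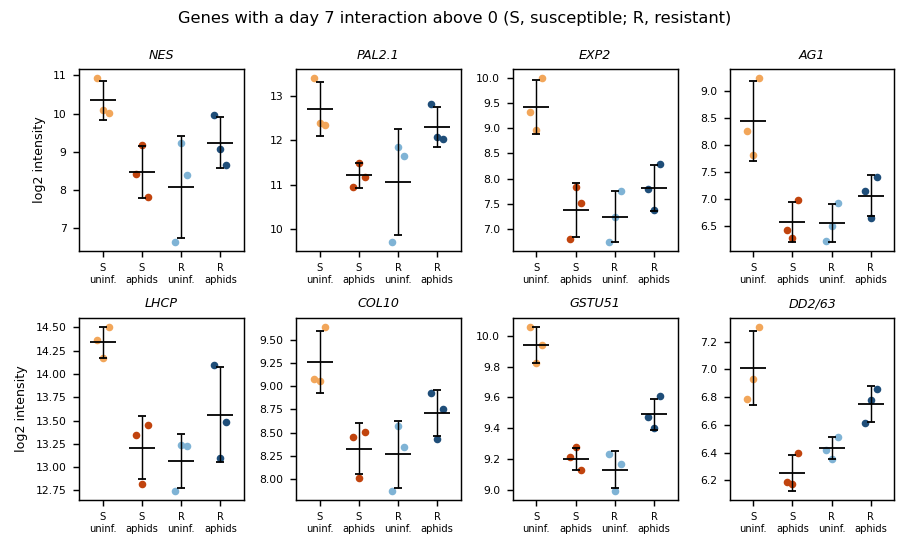
Log2 intensity on each day 7 array of the 8 named genes whose interaction passed above 0, by group, with the mean and SD (n = 3) as lines and each panel on its own scale. In the susceptible cultivar (S) every infested array lies below every uninfested array, and uninfested resistant leaves (R) have a lower mean than infested susceptible leaves in 7 of the 8 panels.

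Probe sets without a gene name carried several of the strongest differences. Of those above 0, Gma.12553.1.A1_at had the smallest p. It measured 9.81, 8.69 and 9.65 in uninfested and 7.15, 7.18 and 7.42 in infested susceptible leaves, against 7.42, 7.80 and 7.62 in uninfested and 8.22, 8.40 and 8.03 in infested resistant leaves. Neither cultivar's groups overlapped, and the interaction was 2.74 ± 0.36 (SE, adjusted p = 0.00331). GmaAffx.38977.1.S1_s_at had one of the smallest p values below 0. It measured 6.40, 7.12 and 6.17 in uninfested and 10.03, 8.71 and 8.95 in infested susceptible leaves, against 8.51, 8.55 and 8.06 in uninfested and 8.26, 7.43 and 7.68 in infested resistant leaves. The susceptible groups were far apart and the resistant groups overlapped, with an interaction of -3.25 ± 0.42 (SE, adjusted p = 0.00331). Gma.4313.1.S1_x_at (2.09 ± 0.32, adjusted p = 0.0131) and GmaAffx.20918.1.S1_at (1.83 ± 0.28, adjusted p = 0.0133) were the next above 0. All 4 passed without any single day 7 array, and GmaAffx.20918.1.S1_at did not pass on unscaled values (adjusted p = 0.0823). The extremes of the whole range were 2 probe sets without a gene, Gma.15718.1.A1_at at 4.49 ± 0.99 (adjusted p = 0.0420) and Gma.2044.1.S1_at at -6.41 ± 1.47 (adjusted p = 0.0479), and these were picked after their values were seen. The second had an aphid effect of 6.46 in the susceptible and 0.05 in the resistant cultivar.

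Gene lists were described by how their named genes fell around 0, each gene read from its brightest probe set. Over all 1131 named genes 582 lay above and 549 below 0, with a median of 0.02, and 13 were called, 6 above and 7 below. Nothing below is a test of a list, and members that did not pass are given as values. On unscaled values, where the median of all probe sets was -0.25, the medians of several lists were lower as well, at 0.42 for flavonoids, 0.32 for cytochrome P450, -0.50 for bZIP factors and -0.97 for NAC factors.

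The phenylpropanoid entry and lignin list lay above 0 as a whole: 9 of 9 genes, with a median of 1.42 and 1 call, PAL2.1. After PAL2.1 the largest values were those of 4CL1 and 4CL4, coding for 4-coumarate:CoA ligases, at 1.91 ± 0.65 and 1.89 ± 0.64, then C4H, cinnamate 4-hydroxylase, at 1.44 ± 0.55 (adjusted p = 0.155, 0.151 and 0.207). The mean of the 9 genes was 10.87, 10.23 and 9.81 in uninfested and 9.60, 9.73 and 9.25 in infested susceptible leaves, against 8.74, 10.05 and 9.56 in uninfested and 10.68, 9.95 and 9.64 in infested resistant leaves. Within the resistant cultivar the groups overlapped, and replicate 1 was the lowest of its group without aphids and the highest with them. Without uninfested resistant replicate 1 the median was 1.10.

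Flavonoid and isoflavonoid genes lay above 0 in 31 of 39 cases, with a median of 0.78 and no call. The largest values were those of CHS1, a chalcone synthase, at 3.55 ± 1.29, IFS1, an isoflavone synthase, at 2.22 ± 0.67, and IFR, an isoflavone reductase, at 2.21 ± 0.89 (adjusted p = 0.180, 0.116 and 0.228). The smallest p belonged to UGT78K1, a flavonoid glucosyltransferase, at 1.52 ± 0.44 (adjusted p = 0.103). The median was 0.39 without uninfested resistant replicate 1. Cytochrome P450 genes, which share some members with that list, lay above 0 in 22 of 32 cases (median 0.63, or 0.37 without uninfested resistant replicate 1), and CYP76O2 was the highest at 3.79 ± 1.07 (adjusted p = 0.0915).

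Lists of membrane and transport genes lay above 0 with no call. Fatty acid desaturases, which set the unsaturation of membrane lipids, did so in 7 of 10 genes (median 0.66, or 0.32 on unscaled values). FAD6.1 at 1.68 ± 0.41 and FAD8.2 at 2.07 ± 0.58 had the smallest p (adjusted p = 0.0608 and 0.0882), and the omega-3 desaturase genes FAD3C and FAD3B were at 1.63 ± 0.62 and 1.24 ± 0.46 (adjusted p = 0.204 and 0.193). Aquaporins, water channels, did so in 17 of 23 genes (median 0.42), with PIP2-4 at 1.94 ± 0.48 (adjusted p = 0.0611). PIP2-4 did not overlap between treatments in either cultivar. The aquaporin median was 0.26 without uninfested resistant replicate 1 and 0.0 on unscaled values.

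Most phloem markers lay above 0, with no call. Of 8 sieve element occlusion genes, which encode the proteins that plug sieve tubes, 7 lay above 0, with a median of 0.56, and SEOF was the highest at 1.50 ± 0.72 (adjusted p = 0.317). The 9 phloem and vascular markers are these 8 genes and SUT1, which was at -0.09 ± 0.33 (adjusted p = 0.925). Their mean was 6.86 ± 0.21 in uninfested and 6.44 ± 0.08 in infested susceptible leaves, and 6.23 ± 0.17 in uninfested and 6.34 ± 0.14 in infested resistant leaves (SD, n = 3). These means were low, below 7.62, the median level of all probe sets. The part of these markers in the other results was not tested.

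Among lists of at least 5 genes, those furthest below 0 were stress-related transcription factors and seed maturation genes. Among 8 DREB and cold factors, regulators of dehydration and cold responses, 7 lay below 0, with a median of -1.42 and no call. DREB2 (-1.75 ± 0.43, adjusted p = 0.0600) and DREB2A2 (-1.85 ± 0.50, adjusted p = 0.0784) had the smallest p. DREB2 measured 8.89, 8.97 and 9.14 in uninfested and 10.18, 10.48 and 10.67 in infested susceptible leaves, against 11.08, 10.07 and 10.10 in uninfested and 9.56, 10.53 and 10.24 in infested resistant leaves. The susceptible groups were apart and the resistant groups overlapped. Of 20 NAC factors 17 lay below 0, with a median of -0.59 (-1.0 without infested resistant replicate 1), and NAC1 and NAC26 were at -2.54 ± 0.82 and -2.43 ± 0.81 (adjusted p = 0.135 and 0.147).

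Seed maturation and dehydrin genes lay below 0 in 28 of 32 cases, with a median of -0.45 and PM3 as the 1 call. The largest values were imprecise: PM30 at -5.08 ± 1.57, MAT1 at -4.91 ± 1.63 and PM35 at -3.33 ± 1.17 (adjusted p = 0.122, 0.147 and 0.170). MAT1 measured 6.48, 8.31 and 6.79 in uninfested and 12.40, 10.32 and 13.21 in infested susceptible leaves. In the resistant cultivar it measured 13.27, 9.17 and 8.28 in uninfested and 7.92, 13.35 and 9.10 in infested leaves. Each resistant group held 1 array above 13 and 2 arrays below 10, with and without aphids, so replicates differed by more than the groups did. Over single omissions the list median ran from -0.69 to -0.36, the latter without uninfested resistant replicate 1.

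Several hormone and regulator lists had medians near 0. Jasmonate synthesis genes were split, 7 above and 9 below 0 with a median of -0.12. AOC3, an allene oxide cyclase, was at 2.05 ± 0.70 (adjusted p = 0.155). The lipoxygenase genes LOX10 and LOX7 were at -4.24 ± 1.58 and -2.42 ± 0.79 (adjusted p = 0.192 and 0.142). Jasmonate response genes lay lower, 4 above and 9 below 0 with a median of -0.36 and no call. Salicylate and pathogenesis-related genes were 8 above and 5 below (median 0.10), with SGlu2 at 2.47 ± 0.62 (adjusted p = 0.0638). Ethylene genes were 4 above and 5 below (median -0.03, or -0.46 on unscaled values) with no call. ACS1, read in this list from its brightest probe set, was at -1.0 ± 0.53 (adjusted p = 0.374). WRKY factors were 28 above and 25 below (median 0.08), although the WRKY genes with a called probe set lay below 0. MYB factors were 43 above and 36 below (median 0.08), bZIP factors 25 above and 42 below (median -0.16). The medians of WRKY and MYB factors changed sign on unscaled values, to -0.25 and -0.07. The salicylate median was -0.26 there, and the jasmonate synthesis median was 0.13 with median centring. Without uninfested resistant replicate 1 the WRKY median was -0.14 and the salicylate median -0.07.

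**Figure D4:**
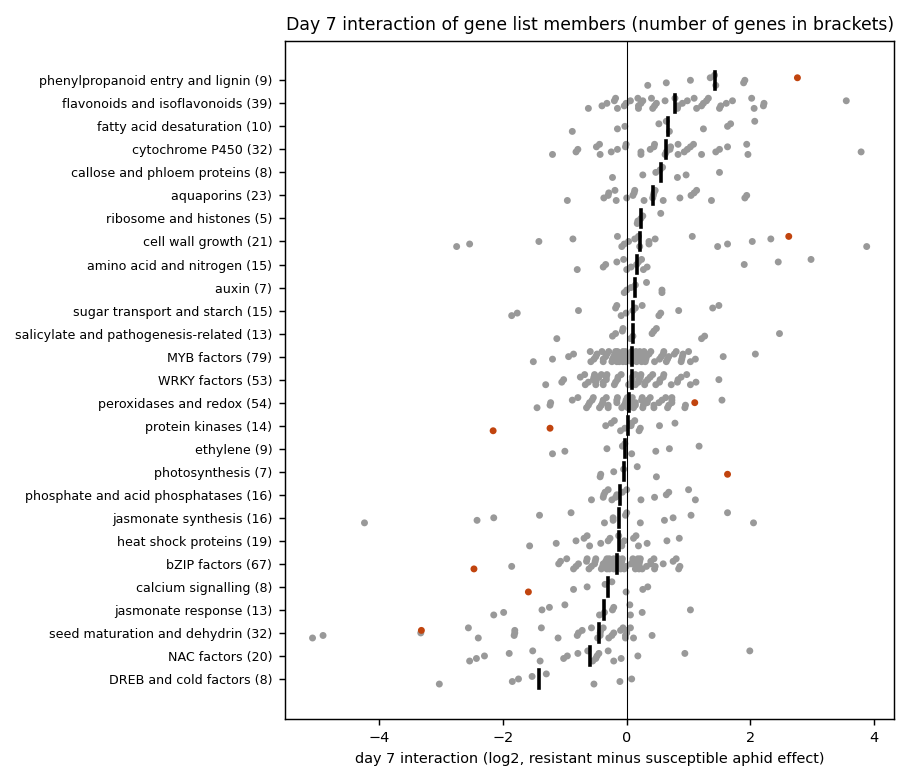
Day 7 interaction in log2 units of each named gene in 27 lists of at least 5 genes, with list medians as black bars and called genes in red. Phenylpropanoid genes lie highest with a median of 1.42, DREB and cold factors lowest with -1.42, and most members of every list did not pass.

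Whether the interaction was particular to day 7 was tested as the day 7 interaction minus the day 1 interaction, from separate arrays. It passed for 0 of 37593 probe sets in limma, with a smallest adjusted p of 0.0747 and 4993 probe sets at an unadjusted p under 0.05, and for 14 with array weights. Leaving out single arrays gave 0 to 6 calls. With all arrays and equal weights, no probe set can therefore be called different between the days, and the day 1 interaction itself passed for 333 probe sets. Of the 254 called on day 7, 180 (70.9%) had the same sign on day 1, against 57.4% of all probe sets. Across all 37593 probe sets the interactions of the days correlated with r = 0.26, a description over probe sets that share each day's arrays.

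The genes differed in how far the day 1 value lay from that of day 7. WRKY22 was close on both days, at -0.98 ± 0.27 on day 1 and -1.21 ± 0.27 on day 7. SCAM-5 and PM3, by contrast, were at 0.03 ± 0.21 and 0.15 ± 0.52 on day 1, and SPK-4 was at -0.26 ± 0.27. The test of the difference between days gave adjusted p values of 0.117 for SCAM-5, 0.164 for SPK-4 and 0.180 for PM3. NES and PAL2.1 were below 0 on day 1, at -0.69 ± 0.69 and -0.24 ± 0.57, and above 0 on day 7 (adjusted p of the difference 0.213 and 0.215). BZIP71, WRKY51 and BMY1 had the same sign on both days, with day 1 values of -0.95 ± 0.39, -0.74 ± 0.37 and -0.75 ± 0.39. The smallest adjusted p of the difference, 0.0747, belonged to GmaAffx.38977.1.S1_s_at, at 0.45 ± 0.42 on day 1.

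**Figure D5:**
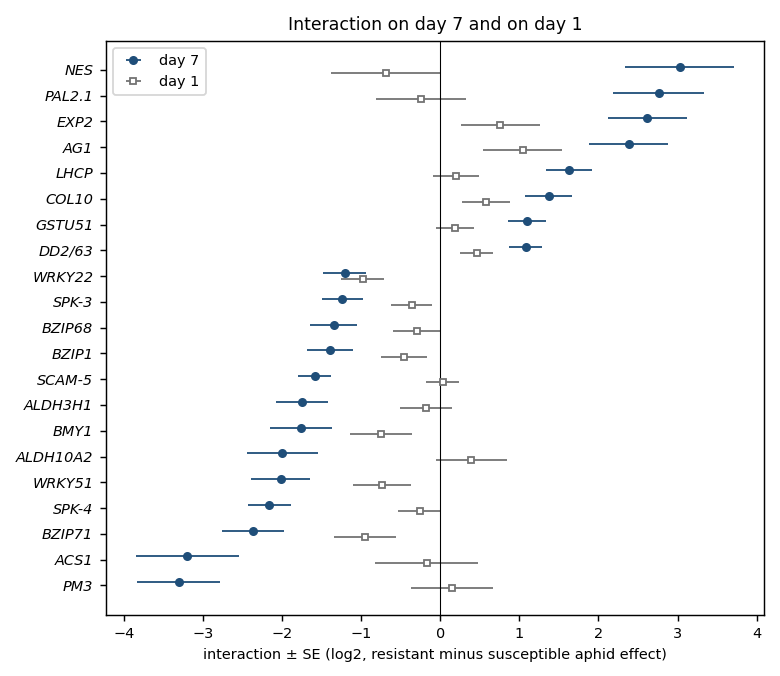
Interaction with its standard error on day 7 (filled circles) and day 1 (open squares), in log2 units, for the 21 named genes called on day 7, which were chosen on the day 7 value. The day 1 values lie closer to 0 than the day 7 values for all 21 genes, and no difference between days passed the test.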

How the data were processed

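The deposited table holds log2 intensities of 37653 probe sets on 24 arrays, made by the authors from biotin-labelled total RNA per the labels. The submitters' processing notes name RMA, GCRMA and limma without a role; the summarisation of probes has no stated method among the sources used. On the linear scale 99.65% of values are whole numbers within 0.01, so normalization beyond summarisation was not assumed. The 60 control probe sets were set aside and 37593 soybean probe sets were quantile-normalized over all 24 arrays. Group means of the 8 groups were fitted with limma 3.58.1 in R 4.3.3 (24 arrays, residual degrees of freedom 16, prior 3.65), the interaction was tested as a contrast with eBayes, and p-values were adjusted by Benjamini-Hochberg over all soybean probe sets at 0.05. The fit was run on simulated data with independent noise for each probe set. That run does not cover deviations that the probe sets of an array share. Standard errors are moderated, with n = 3 arrays per group. The number of arrays limits the precision.

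The labels call replicates separate samples and do not say whether plants were pooled, so the spread behind the p-values may be technical. The files give no batch, scan or extraction information. Correlations of same-numbered deviations on day 7 ran from -0.404 to 0.457, which does not settle whether replicate numbers pair samples. The main fit used no pairing.

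Probe sets were named from the platform annotation: 8677 had 1 gene, 370 several and 28546 none, and 1882 probe sets of 1131 genes had a name other than a locus number. Named genes were the 15 largest called differences in each direction, with 1 probe set per gene, the 3 smallest p in each direction, and up to 2 members of each gene list above and below 0. Of those list members, the ones with an unadjusted p under 0.05 were followed through the alternatives, and a few further members with large values were named after their values were seen. Gene lists were drawn up from symbols, and 93 wrong matches were removed on symbol alone after values had been seen. The contrast, lists and names were chosen with earlier results of these data known. Alternatives covered scaling, background correction, filters, variance model, replicate block, a covariate for the 3' minus 5' signal and leaving out arrays. No sequence is given.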

Additional observations from a re-analysis of the deposited data

Results flagged for a closer look

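The aphid effect differed between the cultivars, by the test of the difference itself, in 254 probe sets. The 10 that also passed without each of the 12 day 7 arrays are given here. Of these, 3 have a named gene: PM3 at -3.31 (highest adjusted p over the omissions 0.0488), SPK-4 at -2.16 (0.0142) and SCAM-5 at -1.59 (0.0175). A further 4 lay below 0, with GmaAffx.38977.1.S1_s_at at -3.25 (0.0142), Gma.8753.1.S1_at at -2.37 (0.0461), GmaAffx.8309.1.A1_at at -2.02 (0.0486) and GmaAffx.42822.1.A1_at at -1.80 (0.0190). The 3 above 0 were Gma.12553.1.A1_at at 2.74 (0.0175), Gma.4313.1.S1_x_at at 2.09 (0.0461) and GmaAffx.20918.1.S1_at at 1.83 (0.0488). None of the 10 passed in the fit of the 12 day 7 arrays alone, where limma called 0 probe sets and 6097 had an unadjusted p under 0.05.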

How the results depend on the processing

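The 254 calls (105 above 0, 149 below 0) became 497 (17 and 480) without scaling, 441 (189 and 252) with median centring, 880 (338 and 542) with array weights, 767 (309 and 458) with the 3' minus 5' covariate, and 0 (0 and 0) in the fits of the 12 day 7 arrays alone, with or without their own quantile normalization, where 6097 and 6098 probe sets had an unadjusted p under 0.05 in limma. The cause was not tested. The median of all probe sets was -0.25 unscaled and 0.11 with median centring. The replicate block gave 240 calls within day (91 and 149), of which 167 were shared with the 254, and 384 over both days (153 and 231). With the block within day, 14 of the 21 named genes kept their call. Whether the replicate numbers pair samples is not settled, so what a call lost there means was not tested. Normexp correction, the filter on dim probe sets, inclusion of the control probe sets, a robust trended variance and a minimum of 1 log2 unit gave 202 to 252 calls. Leaving out 1 day 7 array gave 12 to 642 calls, 3 to 211 above 0 and 7 to 436 below 0, and the day 7 minus day 1 test gave 0 to 6 over the 24 omissions. It gave 0 on unscaled values and with the block. The 254 called probe sets kept their sign in each alternative in which they were tested. RAR1-1, which did not pass at 0.41, turned to -0.02 unscaled. No background came with the values, which limits what can be said of values near 5.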
